A study of Mus musculus with 48 samples.

Results

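The opioid-type peptides and their receptors are a small set of neuronal signalling genes, and 8 of them were present among the 16510 genes of the count table: the 3 ligand precursors *Pdyn*, *Penk* and *Pnoc*, and the 5 receptors *Oprk1*, *Oprm1*, *Oprd1*, *Oprl1* and *Npbwr1*. The members were listed by gene name, with earlier results of these data known. They were measured by single-cell RNA sequencing (scRNA-seq) of the mouse hypothalamus at E18.5 (embryonic day) in 6 Control embryos (Eed fl/fl) and 9 Eed-cKO embryos (Eed fl/fl; Sox1-Cre/+). All embryos carried floxed alleles of *Eed*, which encodes a core subunit of the polycomb repressor complex that places a repressive mark on histone H3. The question was which of these genes differed in level, in the share of cells with a transcript and in the kinds of cells that held them once *Eed* had been removed from the developing nervous system. Sox1-Cre acts in the neural lineage, and the paper holds that non-neural cells such as vascular, blood and microglial cells would not be targeted. Whether *Eed* was intact in the blood vessel, meningeal and immune cells of this tissue was not tested here. The embryos came from 10 litters and 0 litters held both genotypes, so litter and genotype cannot be told apart.

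Opioid peptides are made as long precursors that proteases cut at pairs of basic residues. *Pdyn* encodes the precursor of the dynorphins, *Penk* that of the enkephalins and *Pnoc* that of nociceptin. Dynorphins act mainly on the kappa receptor (*Oprk1*), enkephalins on the delta and mu receptors (*Oprd1*, *Oprm1*) and nociceptin on its own receptor (*Oprl1*), and these receptors couple to inhibitory G proteins that close calcium channels and open potassium channels. *Npbwr1* encodes a related receptor for neuropeptides B and W. In the hypothalamus these systems are known for their part in feeding, stress, reward, pain and the control of reproductive hormones.

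The part of each precursor that binds an opioid receptor begins with a 4-residue core, and the coding sequence of that core is shown because it is the shared element of the 3 ligand genes, and because that of *Pnoc* differs from the other two. Each is given 5′ to 3′ on the coding strand of mouse build GRCm38 as 27 bases, in which capitals mark the core codons, the 6 bases before them encode the basic pair and the 9 bases after them the next 3 residues. All lie on the minus strand.
Pdyn core 1 (chr2:129688232-129688258, exon 4 of 4): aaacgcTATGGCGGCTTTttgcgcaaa
Pdyn core 2 (chr2:129688124-129688150, exon 4 of 4): aaacgcTATGGGGGCTTCctgcggcgc
Pdyn core 3 (chr2:129688067-129688093, exon 4 of 4): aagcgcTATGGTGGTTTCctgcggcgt
Penk core 1 (chr4:4134328-4134354, exon 2 of 2): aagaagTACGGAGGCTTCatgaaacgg
Penk core 6 (chr4:4133935-4133961, exon 2 of 2): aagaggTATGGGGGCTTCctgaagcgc
Pnoc core 1 (chr14:65404872-65404898, exon 3 of 4): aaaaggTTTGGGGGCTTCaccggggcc

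The *Pdyn* precursor of 248 residues held 3 Tyr-Gly-Gly-Phe cores, each followed by Leu. The *Penk* precursor of 268 residues held 7 such cores, 6 followed by Met and 1 by Leu. The *Pnoc* precursor of 187 residues held 1 core, Phe-Gly-Gly-Phe, in which the first residue is Phe in place of Tyr. Every core was preceded by a basic pair. The reads came from the 3′ ends of transcripts and were deposited as 1 count per gene, so they do not tell which exon or core they covered. The genes lie at chr2:129686565-129699844 (*Pdyn*), chr4:4133531-4138819 (*Penk*), chr14:65400673-65425472 (*Pnoc*), chr1:5588466-5606131 (*Oprk1*), chr10:6758506-7038198 (*Oprm1*), chr4:132110726-132144486 (*Oprd1*), chr2:181715016-181720985 (*Oprl1*) and chr1:5913707-5917398 (*Npbwr1*). Annotated exons of *Penk* share 233 bases with A830012C17Rik and those of *Oprm1* share 96 bases with *Ipcef1*, each on the opposite strand, and the sources used here do not state whether strand was used in counting.

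The table held 14121 cells in 48 libraries, with 217 to 1664 cells per embryo and a median of 4549 unique molecular identifiers (UMIs, tags that count single transcript molecules) per cell. Of 14019 barcodes, 101 occurred in more than 1 library. *Eed* itself stood at 28.6 to 32.9 CPM (the usual count per library size, after TMM scaling) in Control and 19.5 to 27.9 CPM in Eed-cKO embryos, which did not overlap, although 3′ reads can also come from a transcript that lacks the floxed exons. All cells outside the vascular, meningeal and immune clusters, called All-Hypo, numbered 6847 in Control and 6457 in Eed-cKO embryos. Of these, 5235 and 4837 lay in 15 neuron-like clusters. Clusters 0 and 21 of these, led by *Tfap2b* and *Alas2*, held 1789 Eed-cKO and 14 Control cells, and made up 21.6 to 44.5% of the All-Hypo cells of each Eed-cKO embryo but at most 0.475% of those of a Control embryo. The clusters were built with genes that differ between genotypes, so their sizes are given as a description, and results are also given without them. Cluster 21 (248 cells) is the less certain of the pair as a neuron-like cluster. Its 10 leading genes include markers of blood (*Alas2*), pituitary (*Cga*) and tanycytes (*Crym*), and 3 of the 9 neuron markers reached the level that the naming asked for, although each of the 9 was detected in at least 62.1% of its cells. Without cluster 21 alone, 3 of 6 genes tested were called in neuron-like cells, where 15% of all genes were. In GABA cells 4 of 7 were called (8.81% of all genes) and in Glut cells 2 of 6 (7.6%). The numbers with it were the same (18.2%, 10.3% and 9.16% of all genes).

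The 8 genes spanned a wide range of levels. In Control All-Hypo cells, *Oprl1* had 4031 UMIs, *Pnoc* 2393, *Pdyn* 1846, *Penk* 1458, *Oprk1* 627, *Npbwr1* 202, *Oprm1* 64 and *Oprd1* 15. These are counts per gene and were not corrected for transcript length. *Oprm1* and *Oprd1* fell under the filter on low genes and took no part in the main All-Hypo comparison. A vessel cell should lack these genes, and in Control endothelial-like cells (144 cells, median 4822 UMIs, against 5533 in neuron-like cells) a UMI was found in 13.2% for *Oprl1*, 6.25% for *Pnoc*, 5.56% for *Pdyn*, 4.86% for *Penk* and 1.39% for *Npbwr1*. The shares in Control neuron-like cells were 43.5%, 19.8%, 17.1%, 7.97% and 2.43% in the same order. For *Penk* and *Npbwr1* the 95% exact intervals of the endothelial-like shares (1.98 to 9.76% and 0.169 to 4.93%) cover the neuron-like shares, so a single UMI of either gene did not set a cell apart from background. *Oprk1* was found in 0 of 144 endothelial-like cells, which allows up to 2.08%, against 6.88% of neuron-like cells. Intervals and limits cover counting error only.

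Between genotypes, *Oprk1* and *Npbwr1* were lower and *Pnoc* was higher in Eed-cKO All-Hypo cells, and no embryo of the other genotype overlapped for any of them. Of the 6 genes tested, 4 passed the test at an adjusted p of 0.05, 1 upward and 3 downward. Over all 12559 genes tested, 27.7% passed, 15.3% upward and 12.4% downward. How many of all genes had embryos without overlap was not counted.

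*Oprk1*, the kappa receptor, had 14.6, 15.7 and 23.5 CPM (lowest, median and highest embryo) in Control and 1.57, 5.44 and 9.72 CPM in Eed-cKO. Every Eed-cKO embryo lay below every Control embryo. The mean went from 17.1 ± 3.35 (SD, n = 6) to 5.47 ± 2.39 CPM (SD, n = 9), a log2 change of -1.52 (SE 0.19, edgeR quasi-likelihood test, adjusted p = 4.08e-06), or 2.86-fold lower.

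*Npbwr1*, the receptor for neuropeptides B and W, had 3.87, 5.39 and 7.34 CPM in Control and 1.04, 1.81 and 2.96 CPM in Eed-cKO. The groups did not overlap. The log2 change was -1.58 (SE 0.22, edgeR, adjusted p = 1.78e-05), which rests on 202 and 60 UMIs. Of the Control UMIs, 52 lay in the 216 Control cells of cluster 19, led by *Pmaip1*, which held 55 Eed-cKO cells and 1 of their UMIs. Without cluster 19 *Npbwr1* fell under the filter on low genes in All-Hypo cells, and in neuron-like cells its change was -1.17 (edgeR, adjusted p = 0.00296) where it was -1.55 with that cluster, and 18% of all genes passed there without it.

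*Pnoc*, the nociceptin precursor, had 54.8, 62.3 and 88.2 CPM in Control and 88.6, 102.0 and 147.8 CPM in Eed-cKO. The highest Control embryo came close to the lowest Eed-cKO embryo without overlap. The log2 change was 0.75 (SE 0.12, edgeR, adjusted p = 6.53e-05), or 1.68-fold higher. Without clusters 0 and 21 this difference was 0.13 (SE 0.13, edgeR, adjusted p = 0.467), so the call ended. Cluster 0 alone held 47.3% of the *Pnoc* UMIs of Eed-cKO cells, at 200.8 CPM and in 44.5% of its cells.

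*Pdyn*, the dynorphin precursor, had 44.2, 48.9 and 57.9 CPM in Control and 17.3, 39.7 and 47.3 CPM in Eed-cKO, with overlap. Its log2 change of -0.38 (SE 0.14, edgeR, adjusted p = 0.0493) was just past the threshold, and was lost when any of 10 of the 15 embryos was left out, although the change stayed between -0.42 and -0.31, and without clusters 0 and 21 (-0.20, adjusted p = 0.313). It was also lost with total UMIs in place of TMM (edgeR, adjusted p = 0.0839), with sex as a covariate (0.0513), with doublet scores removed (0.104), with cells thinned to 2000 UMIs (-0.29, adjusted p = 0.172), without embryos under 500 cells (0.0761) and by limma's test over embryos (0.363) or libraries (0.149). In neuron-like cells *Pdyn* did not pass (-0.29, SE 0.13, edgeR, adjusted p = 0.135). *Penk*, the enkephalin precursor, had 31.0, 39.0 and 46.6 CPM against 23.1, 37.7 and 47.8 CPM and did not pass (-0.17, SE 0.14, edgeR, adjusted p = 0.389). With cells thinned to 2000 UMIs *Penk* passed downward (-0.53, edgeR, adjusted p = 0.0109, where 17.2% of genes passed). *Oprl1*, the nociceptin receptor, had 99.4, 109.4 and 120.5 CPM against 89.9, 102.2 and 114.6 CPM and did not pass (-0.11, SE 0.067, edgeR, adjusted p = 0.25). With libraries in place of embryos it did (-0.13, edgeR, adjusted p = 0.0244), but libraries of 1 embryo are not independent replicates. Without clusters 0 and 21, where 31.6% of all genes passed, *Penk* (-0.59, SE 0.19, adjusted p = 0.0235) and *Oprl1* (-0.22, SE 0.071, adjusted p = 0.0207) passed downward, while *Oprk1* (-1.57) and *Npbwr1* (-1.40) stayed past the threshold by edgeR.

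*Oprm1*, the mu receptor, stood at 1.74 ± 0.611 CPM in Control (SD, n = 6) and 0.838 ± 0.646 CPM in Eed-cKO embryos (SD, n = 9). With the filter on low genes removed its log2 change was -1.06 (SE 0.41, edgeR, adjusted p = 0.0597). *Oprd1*, the delta receptor, had 15 and 23 UMIs in all and a log2 change of 0.68 (SE 0.50, edgeR, adjusted p = 0.35). No difference was called at this depth, and the 95% interval ran from -0.31 to 1.66.

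**Figure D1:**
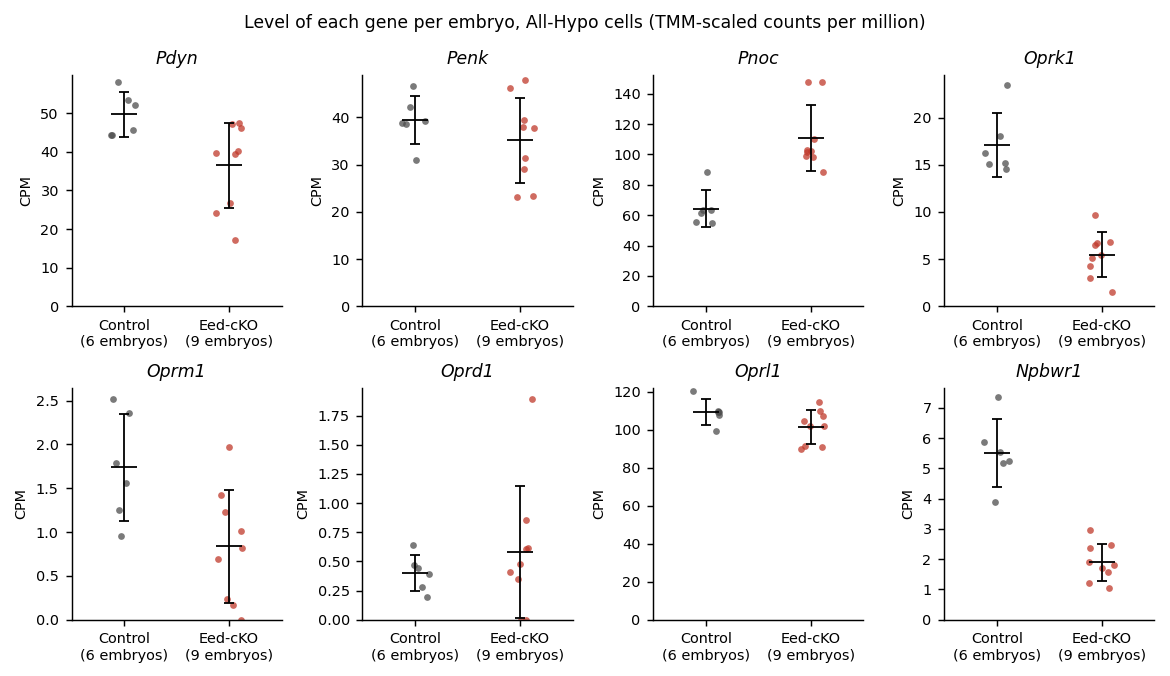
Level of each of the 8 genes in All-Hypo cells, in TMM-scaled CPM on linear axes from 0. Each dot is 1 embryo (6 Control in grey, 9 Eed-cKO in red), and bars give the mean and SD. For Oprk1 and Npbwr1 all Eed-cKO dots lie below all Control dots, for Pnoc they all lie above, and for the other 5 genes the groups overlap.

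The share of cells with at least 1 UMI was tested for all 8 genes. *Oprk1* was found in 6.01 ± 1.04% of Control All-Hypo cells (SD, n = 6 embryos) and in 2.22 ± 0.958% of Eed-cKO cells (SD, n = 9). *Npbwr1* was found in 1.95 ± 0.412% and 0.878 ± 0.314%. For both, the exact permutation test over 5005 splits of the embryos gave its smallest possible p, 0.0002. *Pnoc* rose from 16.2 ± 2.52% to 25.8 ± 5.41% (exact permutation p = 0.0012), and without clusters 0 and 21 its difference was 1.53 percentage points (exact permutation p = 0.395). *Oprm1* went from 0.757% to 0.351% (exact permutation p = 0.00819), and with every cell thinned to 2000 UMIs the difference was -0.248 percentage points (exact permutation p = 0.0152). At 1000 UMIs it was -0.0897 points (exact permutation p = 0.153). With at least 2 *Oprm1* UMIs asked of a cell it was -0.132 points (raw exact permutation p = 0.0436). Neither of the last 2 passed after adjustment over the 8 genes. The shares of *Pdyn* (14.5% and 11.3%, exact permutation p = 0.114), *Penk* (6.768% and 7.005%, p = 0.768), *Oprd1* (0.195% and 0.270%, p = 0.528) and *Oprl1* (36.8% and 31.9%, p = 0.175) overlapped between genotypes. Without clusters 0 and 21, however, the shares of *Penk* (6.765% and 4.907%, exact permutation p = 0.013) and *Oprl1* (36.7% and 28.1%, exact permutation p = 0.0122) were lower in Eed-cKO.

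Positive cells often carried a single UMI, from 49.5% of the *Pnoc*-positive to 94.7% of the *Npbwr1*-positive cells of Eed-cKO embryos. *Penk* was the most uneven of the ligand genes, since 17.0% of its positive Control cells had 5 UMIs or more and held 56.9% of its UMIs, with up to 38 UMIs in 1 cell. Cells with 5 or more *Penk* UMIs made up 1.18 ± 0.242% of Control and 0.724 ± 0.269% of Eed-cKO All-Hypo cells (SD, n = 6 and 9 embryos, exact permutation p = 0.00819). Cells with 5 or more *Oprk1* UMIs were 0.192% in Control and 0 of 6457 in Eed-cKO, which allows up to 0.0465% (exact permutation p = 0.002). For *Pdyn* the shares were 1.04% and 0.487% (exact permutation p = 0.0503) and for *Pnoc* 1.502% and 1.736% (p = 0.569). The last of the 5 genes tested, *Oprl1*, had 0.796% and 0.488% (exact permutation p = 0.283).

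Neurons that release GABA carry its vesicle transporter *Slc32a1*, and neurons that release glutamate carry *Slc17a6*. Neuron-like cells with a UMI of only the first were called GABA cells (1327 Control, 597 Eed-cKO) and those with a UMI of only the second Glut cells (2382 and 2034). Both classes come from the same embryos as the All-Hypo comparison and are not independent of it. In Control embryos, 5 of 6 tested genes differed between the classes, with the embryo as a block, where 8.45% of 11953 genes did. *Pnoc* was higher in GABA cells (log2 difference 1.96, SE 0.11, edgeR, adjusted p = 7.7e-13), as were *Penk* (1.19, SE 0.19, adjusted p = 8.34e-05), *Npbwr1* (1.09, SE 0.29, adjusted p = 0.0137) and *Oprk1* (0.92, SE 0.24, adjusted p = 0.0151). *Pdyn* was lower in GABA cells (-0.92, SE 0.12, edgeR, adjusted p = 3.89e-06), and for *Oprl1* the 95% interval of the difference ran from -0.13 to 0.17. Without Control embryo 1 or 6 *Oprk1* no longer passed (0.51, adjusted p = 0.237, and 0.83, adjusted p = 0.0801), and without Control embryo 5 *Npbwr1* no longer passed (0.94, adjusted p = 0.067).

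In GABA cells, 4 of the 7 genes tested differed between genotypes, where 10.3% of 12722 genes did. *Oprk1* had 13.4, 21.4 and 53.8 CPM in Control and 0, 2.80 and 18.6 CPM in Eed-cKO embryos, with overlap (log2 change -2.14, SE 0.42, edgeR, adjusted p = 0.000338). *Npbwr1* had 5.85, 9.94 and 11.5 CPM in Control, while 7 of 9 Eed-cKO embryos had 0 and the highest had 2.07 CPM. It rests on 67 UMIs in 1327 Control cells and 2 in 597 Eed-cKO cells, a ratio of 0.0802 with a 95% exact counting interval of 0.00952 to 0.301 (edgeR, adjusted p = 0.000131). *Penk* had 38.9, 68.8 and 103.5 CPM in Control and 15.6, 37.6 and 49.6 CPM in Eed-cKO, with overlap (-1.05, SE 0.22, edgeR, adjusted p = 0.000746).

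*Pdyn* moved the other way in GABA cells, with 28.7, 32.4 and 38.9 CPM in Control and 0, 49.5 and 82.7 CPM in Eed-cKO embryos (0.71, SE 0.23, edgeR, adjusted p = 0.0349). The Eed-cKO embryos were widely spread, and the call was lost when any of 6 embryos was left out, with values from 0.56 to 0.70. *Pnoc* had 122.2, 128.5 and 211.5 CPM against 97.1, 167.1 and 266.6 CPM and did not pass (0.13, edgeR, adjusted p = 0.652). Clusters 0 and 21 held 34.2 to 64.7% of the GABA cells of each Eed-cKO embryo. Without them, where 7.57% of genes passed, *Pdyn* (1.01), *Penk* (-1.10), *Oprk1* (-2.14) and *Npbwr1* (-2.78) all still passed, but with at least 2 UMIs of *Slc32a1* required *Penk* (-0.31, edgeR, adjusted p = 0.673) and *Npbwr1* (-2.84, adjusted p = 0.0586) did not, where 5.27% of genes did. That requirement also left Eed-cKO embryos 2 and 9 with too few cells. In the other embryos with 1 UMI required, both passed (-1.06, edgeR, adjusted p = 0.00219, and -3.35, adjusted p = 0.000474), where 9.49% of genes did.

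In Glut cells, 2 of 6 genes tested differed between genotypes, where 9.16% of 12182 genes did. *Pnoc* had 20.8, 37.1 and 47.9 CPM in Control and 59.4, 88.6 and 118.3 CPM in Eed-cKO embryos. The groups did not overlap (1.31, SE 0.15, edgeR, adjusted p = 6.07e-07), or 2.47-fold higher. Clusters 0 and 21 held 15.3 to 40.4% of the Glut cells of each Eed-cKO embryo, and without them, where 5.72% of genes passed, *Pnoc* was still higher (1.00, SE 0.16, edgeR, adjusted p = 0.000241). *Oprk1* had 10.1, 12.1 and 16.0 CPM against 0, 6.09 and 8.10 CPM, without overlap (-1.03, SE 0.20, edgeR, adjusted p = 0.00132), and without the 2 clusters its change was -1.15. *Npbwr1* did not pass in Glut cells (-0.49, SE 0.30, edgeR, adjusted p = 0.341).

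The genotype difference itself differed between GABA and Glut cells for 2 of 7 genes, where 1.31% of 12414 genes did. For *Pnoc* the difference in GABA cells minus that in Glut cells was -1.17 (SE 0.17, edgeR, adjusted p = 2.95e-06), and for *Pdyn* it was 1.01 (SE 0.21, edgeR, adjusted p = 0.00217). Both held without clusters 0 and 21 (-1.13 and 1.12), where 1.66% of genes passed. For *Npbwr1* (-3.04, SE 0.85, edgeR, adjusted p = 0.0554) and *Penk* (-0.89, SE 0.29, adjusted p = 0.147) no difference between the classes was called. Both passed with certain embryos left out: *Npbwr1* without Control embryo 6 (-3.20, edgeR, adjusted p = 0.0451), Eed-cKO embryo 4 (-3.82, adjusted p = 0.0263) or Eed-cKO embryo 5 (-3.67, adjusted p = 0.0426), and *Penk* without Control embryo 2 (-1.14, adjusted p = 0.0118). Cells with both transporters numbered 292 in Control and 1068 in Eed-cKO, and in these *Pnoc* stood at 82.9 ± 24.9 and 181.5 ± 28.1 CPM (SD over 6 and 9 embryos). A cell with 1 transporter undetected is counted in the wrong class, and the part of this in the class differences was not tested.

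**Figure D2:**
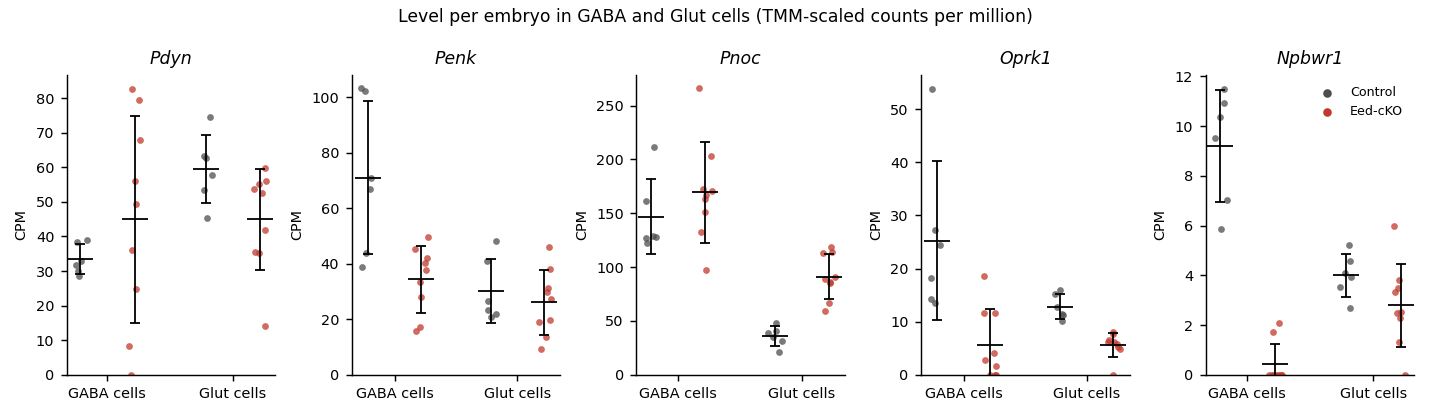
Level per embryo in GABA and Glut cells for 5 genes, in TMM-scaled CPM on linear axes from 0. Each dot is 1 embryo (Control in grey, Eed-cKO in red), and bars give the mean and SD. In Glut cells all Eed-cKO embryos lie above all Control embryos for Pnoc, while in GABA cells the genotypes overlap for Pnoc and 7 of 9 Eed-cKO embryos lie at 0 for Npbwr1.

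The ligand genes were spread over several neuron-like clusters, which are called here by number and leading gene. As a description of Control cells, *Pdyn* was highest in cluster 15 (*Vgll2*, 152.3 CPM, 38.6% of cells), followed by cluster 7 (*Ppp1r17*, 125.0 CPM), while cluster 3 (*Avp*, the vasopressin gene, 86.3 CPM) held the largest part of its UMIs, 33.5%. *Pnoc* was highest in cluster 2 (*Sp8*, 154.7 CPM), which held 42.2% of its UMIs, and next in cluster 6 (*Foxb1*, 118.8 CPM), leaving aside clusters 0 and 21 with their 14 Control cells. *Penk* stood between 49.8 and 70.6 CPM in its highest neuron-like clusters, 1 (*Cited1*), 19 (*Pmaip1*) and 2. *Oprk1* was highest in cluster 1 (41.1 CPM, 25.9% of its UMIs) and *Npbwr1* in cluster 19 (51.5 CPM, 25.4% of its UMIs, against 8.32 CPM in the next neuron-like cluster). Among neuron-like clusters other than 0 and 21, *Oprl1* lay between 80.4 CPM in cluster 9 (*Neurod6*) and 131.8 CPM in cluster 16 (*Lhx6*).

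Within clusters held by both genotypes, 88 exact permutation tests were made, 8 genes in 11 clusters, and 15 gave a raw p under 0.05. Over 131516 such tests of all genes of the neuron-like comparison, 8.55% did. Adjusted over the 88 tests, 6 passed: *Oprk1* in clusters 1, 3, 9 and 11 (*Trh*), *Pnoc* in cluster 9 and *Oprm1* in cluster 2. *Oprk1* was lower in Eed-cKO in 11 of 11 clusters, as were 1.8% of all genes, and 6 of them had a raw p under 0.05, where 4.87% of the tests of all genes were lower with such a p. In cluster 1 it went from 45.4 ± 30.7 to 6.39 ± 7.52 CPM (SD, n = 6 and 9 embryos, exact permutation p = 0.000999), in cluster 3 from 20.1 ± 6.60 to 8.10 ± 5.62 CPM (n = 6 and 9, exact permutation p = 0.000599) and in cluster 9 from 8.40 ± 3.18 to 0.898 ± 1.67 CPM (n = 6 and 8, exact permutation p = 0.000999). In clusters 2 (*Sp8*, 13.7 and 10.6 CPM) and 6 (*Foxb1*, 3.63 and 3.28 CPM) the means differed by less than the spread between embryos. The same held in clusters 10 (*Barhl1*, 10.4 and 7.28 CPM), 12 (*Emx2*, 6.50 and 2.28 CPM) and 15 (*Vgll2*, 12.1 and 5.67 CPM). *Npbwr1* was lower in 8 and higher in 3 of the 11 clusters and *Pdyn* lower in 4 and higher in 7, and for both 0 clusters passed after adjustment (2 and 1 had a raw exact permutation p under 0.05). *Npbwr1* had near-equal means in clusters 3 (3.66 and 4.24 CPM) and 9 (6.89 and 7.33 CPM), and cluster 19 had too few Eed-cKO cells to be tested.

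*Pnoc* was higher in Eed-cKO in 10 of 11 clusters, and 6.25% of all genes were higher in at least 10. In 3 of these clusters *Pnoc* had a raw p under 0.05, where 3.67% of the tests of all genes were higher with such a p. The lowest p was in cluster 9, led by *Neurod6*, where it went from 1.59 ± 2.66 to 21.3 ± 11.3 CPM (SD, n = 6 and 8 embryos, exact permutation p = 0.002). In clusters 1 (90.1 and 123.2 CPM, raw exact permutation p = 0.0378) and 3 (30.3 and 68.2 CPM, raw p = 0.041) the difference did not pass after adjustment (adjusted p = 0.277 for both). Free RNA in the droplets can carry transcripts of an abundant gene into other cells, and its part in these differences was not tested. *Pnoc* in endothelial-like cells stood at 20.7 CPM in Control and 12.1 CPM in Eed-cKO, and in astrocyte-like cells at 15.4 and 21.1 CPM. *Oprm1* had 16 UMIs in the 1116 Control cells of cluster 2 and none in its 131 Eed-cKO cells (exact permutation p = 0.00216), but a count of 0 there allows a share of up to 2.29%, above the Control share of 1.25%.

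**Figure D3:**
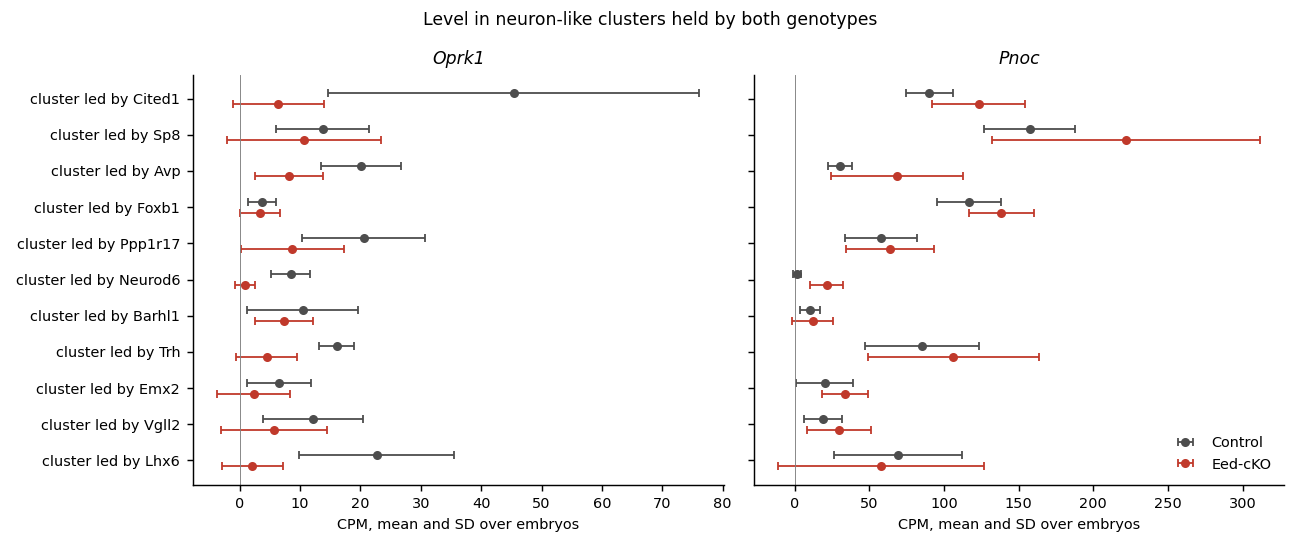
Mean level and SD over embryos of Oprk1 (left) and Pnoc (right), in CPM, in the 11 neuron-like clusters held by both genotypes, each named by its leading gene (Control in grey, Eed-cKO in red). The Control mean of Oprk1 lies above the Eed-cKO mean in all 11 clusters, from 3.63 against 3.28 CPM (Foxb1) to 45.4 against 6.39 CPM (Cited1), and that of Pnoc lies below it in 10.

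Among the named cell kinds, the highest pooled level of *Penk* lay outside the nervous system. Vascular leptomeningeal-like cells, the collagen-rich fibroblasts of the meninges and vessel sheath, had a *Penk* UMI in 17.98% of 89 Control cells (95% exact interval 10.6 to 27.5%) and in 32.8% of 268 Eed-cKO cells (27.2 to 38.8%). Their pooled level was 81.4 and 151.1 CPM, or 202% and 382% of the level in neuron-like cells of the same genotype. In the same Control cells the neuron markers stood at 7.04% (*Elavl4*) to 12.7% (*Celf4*) of their level in neuron-like cells, *Pdyn* at 12.1% and *Pnoc* at 3.05%. *Penk* was higher than in neuron-like cells and each of the 9 neuron markers was lower. The part of RNA carried over from other cells in these levels was not tested. By single cluster the order was less clear. The 2 leptomeningeal-like clusters stood at 60.7 and 146.0 CPM in Control, on 22 and 17 UMIs, neuron-like clusters 1 and 19 at 70.6 and 66.3 CPM, and the unnamed cluster 8 (*Rn45s*), whose cells had a low median of 1010.5 UMIs, at 100.7 CPM. In the other non-neuronal kinds its share was 4.86% of endothelial-like, 2.05% of astrocyte-like and 2.35% of tanycyte-like cells of Control, and 0 of 48 microglia-like cells, which allows up to 6.25%.

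Over all vascular, meningeal and immune cells together, *Penk* was higher in Eed-cKO embryos. It had 0, 21.5 and 57.7 CPM in 6 Control and 42.4, 85.8 and 158.1 CPM in 7 Eed-cKO embryos with at least 20 such cells, with overlap (1.67, SE 0.39, edgeR, adjusted p = 0.0221). Of 12338 genes tested there, 3.02% passed, and *Penk* was the 1 of 4 tested that did. Without Eed-cKO embryo 6 the value was 1.66 (edgeR, adjusted p = 0.0515) and the call was lost. The share of leptomeningeal-like cells among these cells moved with genotype, from 0 to 43.7% (median 26.3%) in Control and from 44.6 to 69.9% (median 52.6%) in Eed-cKO, and so did the summed level of the 8 leptomeningeal markers, from 712 to 16808 CPM and from 15212 to 26941 CPM, with all 8 detected in each Eed-cKO embryo and at least 4 in each Control embryo.

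Within leptomeningeal-like cells alone, *Penk* stood at 65.3, 81.6 and 117.1 CPM in the 3 Control embryos with at least 10 such cells. The 8 Eed-cKO embryos ran from 91.2 to 347.3 CPM, so the groups overlapped. The means were 88.0 ± 26.5 (SD, n = 3) and 181.8 ± 89.3 CPM (SD, n = 8), and the difference did not pass (exact permutation p = 0.109 over 165 splits). The shares of positive cells were 21.2 ± 9.21% and 34.5 ± 10.8% (exact permutation p = 0.0848).

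**Figure D4:**
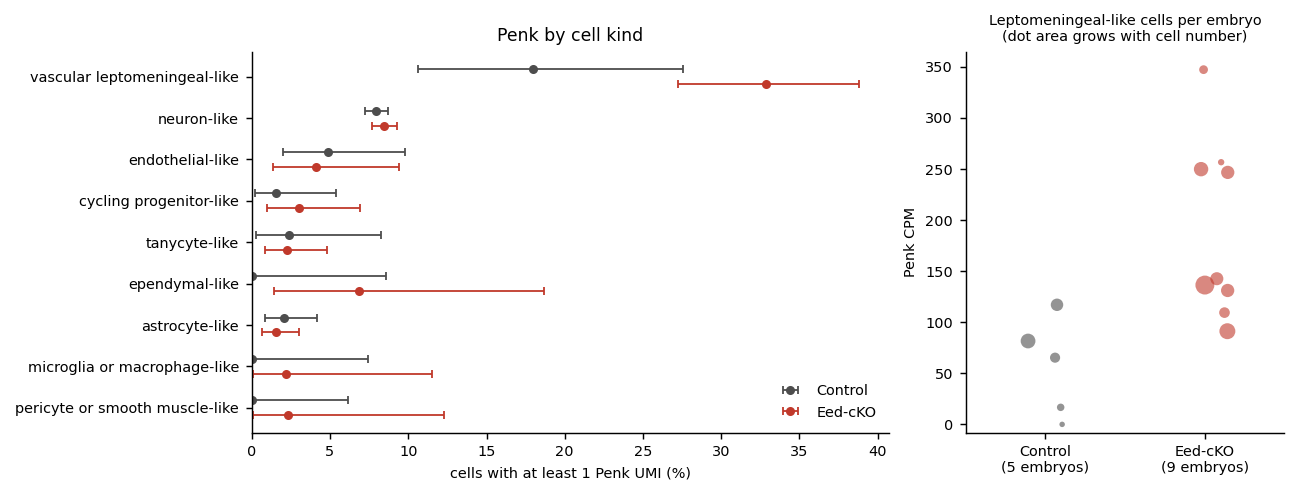
Left, share of cells with at least 1 Penk UMI by cell kind (Control in grey, Eed-cKO in red), with 95% exact intervals for counting error. Right, Penk level in CPM in vascular leptomeningeal-like cells, where each dot is 1 embryo and its area grows with its number of such cells. The leptomeningeal-like share, 17.98% in Control and 32.8% in Eed-cKO, lies above the neuron-like share of 7.97%, and the embryos of the genotypes overlap at 91.2 to 117.1 CPM.

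Ligand and receptor were next sought in the same neuron-like cells. Because a deep cell shows any pair of genes more often, all cells were thinned to 2000 UMIs (293 shallower cells of Control and 334 of Eed-cKO embryos were dropped), and the share of a receptor in ligand-positive cells was set against that in the other cells of each embryo. *Oprl1*, the nociceptin receptor, was found in 21.3 ± 4.40% of *Pnoc*-positive and 19.6 ± 2.05% of *Pnoc*-negative cells (SD, n = 15 embryos, exact permutation p = 0.121), higher in 11 of 15 embryos. It was found in 20.7% of *Pdyn*-positive and 19.7% of negative cells (n = 14, exact permutation p = 0.69), and in 18.7% of *Penk*-positive and 19.9% of negative cells (n = 14, p = 0.605). *Oprk1*, the dynorphin receptor, was found in 2.96 ± 2.56% of *Pdyn*-positive and 1.79 ± 1.18% of negative cells (n = 14, exact permutation p = 0.0933). None of these differences passed the test.

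Without thinning, *Oprl1* was found in 7.55 percentage points more of the *Pdyn*-positive cells, 8.71 points more of the *Penk*-positive cells and 6.85 points more of the *Pnoc*-positive cells, and *Oprk1* in 3.04 points more of the *Pdyn*-positive cells. Those 4 pairs passed at unequal depth and none of them at equal depth. Of the 18 pairs tested at 2000 UMIs, adjusted over the pairs, 1 passed: *Oprm1* was found in 0 of 688 *Pdyn*-positive cells against 0.333% of the others (raw exact permutation p = 0.000977), but a count of 0 allows up to 0.436%. The nearest others were *Penk* with *Oprd1* (0 of 400 cells, which allows up to 0.75%, against 0.123%, raw exact permutation p = 0.00781) and *Pnoc* with *Npbwr1* (0.240% against 0.685%, p = 0.0208). No pair of ligand genes passed either. *Penk* was found in 4.45% of *Pdyn*-positive and 4.37% of other cells (exact permutation p = 0.946), *Pnoc* in 12.2% and 14.6% (p = 0.27), and *Pnoc* in 16.6% of *Penk*-positive and 14.3% of other cells (p = 0.547).

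**Figure D5:**
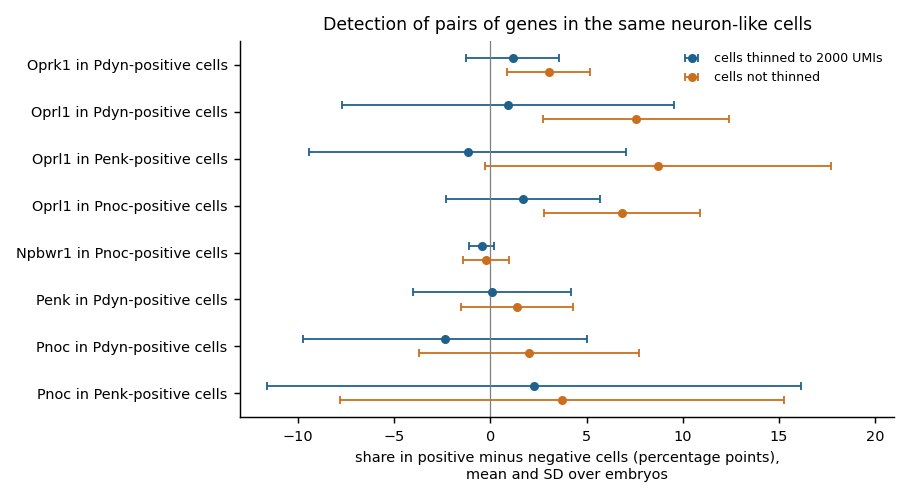
Share of the first-named gene in neuron-like cells positive for the other minus its share in negative cells, in percentage points, as the mean and SD over 14 or 15 embryos. Blue points are cells thinned to 2000 UMIs and orange points cells as deposited. The differences for Oprl1 of 6.85 to 8.71 points without thinning lie between -1.18 and 1.71 points at equal depth.

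The transmitter and factor genes found in the same Control neuron-like cells are given as a description. *Pdyn*-positive cells more often held *Slc17a6* (63.7% against 48.3% of negative cells) and *Fezf1*, a factor of the ventromedial hypothalamus (14.4% against 5.23%). *Pnoc*-positive cells more often held *Slc32a1* (44.9% against 27.6%) and *Isl1* (36.8% against 25.1%), and less often *Slc17a6* (43.1% against 52.8%). *Penk*-positive cells more often held *Slc32a1* (39.9% against 30.2%) and less often *Nkx2-1* (20.03% against 29.04%). *Oprk1*-positive cells more often held *Gal*, the galanin precursor (25.6% against 12.1%), and *Hmx2* (12.2% against 4.53%). At 2000 UMIs per cell these contrasts kept their direction for *Slc32a1* with *Pnoc* (31.8% against 17.1%) and *Gal* with *Oprk1* (18.2% against 6.78%). The contrasts of *Pdyn* and *Penk*, and those in *Isl1* and *Hmx2*, are given at unequal depth only. *Oprl1*-positive cells held *Slc17a6* in 57.7% against 45.9%, which turned to a difference of -1.40 points at 2000 UMIs per cell. In Eed-cKO cells *Slc17a6* was found in 66.9% of *Pdyn*-positive and 65.4% of negative cells, and in 67.7% of *Pnoc*-positive and 61.7% of negative cells. At 2000 UMIs per cell the *Pnoc* contrast in *Slc17a6* was -13.4 points in Control and -1.35 points in Eed-cKO cells, so the higher share in *Pnoc*-positive Eed-cKO cells was not seen at equal depth.

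The genes whose level across the 21 clusters with at least 50 Control cells followed each member most closely are likewise a description, since clusters share their libraries and differ in depth. For *Pnoc* these included *Gad1*, an enzyme of GABA synthesis (Pearson r = 0.78), and *Dennd1c* (0.79). For *Oprk1* they included *Peg10* (0.86) and *Zdbf2* (0.84), for *Npbwr1* the dopamine receptor *Drd1* (0.84), for *Pdyn* *Fam184b* (0.78), *Vgll2* (0.77) and *Sec14l3* (0.75), and for *Penk* *Arhgap44* (0.75). *Oprl1* followed *Nbea* (0.97).

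Genes that make, cut and transduce opioid peptides were read from the same All-Hypo fit. Of 64 listed genes, 62 were in the table and 56 were tested, of which 6 were higher and 13 lower in Eed-cKO, and the median log2 change was -0.11 against 0.01 over all genes. The share called by edgeR was 33.9% beside 27.7% of all genes. With limma's test against a least log2 change of 0.18 the 19 calls fell to 8, a count with no share of all genes beside it. Of 19 tested G proteins and effectors, 8 (42.1%, beside 12.4% of all genes) were lower and 0 higher by edgeR: *Kcnj5* (-0.69, adjusted p = 0.0159) and *Kcnj3* (-0.48), subunits of the potassium channel that opioid receptors open, *Gnai1* (-0.52), *Gnao1* (-0.35) and *Gnaz* (-0.34), inhibitory G protein alpha subunits, the adenylyl cyclase *Adcy1* (-0.54), and the calcium channel subunits *Cacna1a* (-0.24) and *Cacna1b* (-0.41). Of 9 genes of precursor processing and storage, 3 (33.3%) were lower: the protease *Pcsk1* (-0.68, SE 0.19, edgeR, adjusted p = 0.00933), *Pam* (-0.36) and *Scg2* (-0.61, SE 0.073, adjusted p = 2.26e-06), where *Scg2* went from 560.1 ± 59.3 to 365.1 ± 32.1 CPM without overlap. Of 19 tested regulators, 2 were higher and 2 lower (*Rgs7* and *Rgs17*, both -0.46), and of 7 tested peptidases 2 were higher and 0 lower. Without clusters 0 and 21 *Pcsk1* (-0.47, adjusted p = 0.0782) and *Kcnj5* (-0.37, adjusted p = 0.169) did not pass. Nor did they with cells thinned to 2000 UMIs (edgeR, -0.58, adjusted p = 0.141, and -0.43, adjusted p = 0.378) or by limma's test over embryos (adjusted p = 0.104 and 0.0693).

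*Npw*, the ligand precursor for the *Npbwr1* receptor, was higher in Eed-cKO while its receptor was lower. It rose from 1.35 ± 0.775 to 5.11 ± 2.93 CPM (SD, n = 6 and 9), with overlap (1.86, SE 0.37, edgeR, adjusted p = 0.000694), and 48.2% of its Eed-cKO UMIs lay in clusters 0 and 21. *Pomc*, the precursor of beta-endorphin, was also higher (2.36, SE 0.62, edgeR, adjusted p = 0.00684), from 10.9 to 38.0 CPM in Control and from 8.58 to 476.7 CPM in Eed-cKO embryos. A single cell of Eed-cKO embryo 7, in cluster 25 led by *Ttr* and the pituitary hormone gene *Cga*, held 1831 of 3645 Eed-cKO UMIs, and without that embryo the value was 1.43 (edgeR, adjusted p = 0.0116). By limma's test over embryos *Pomc* did not pass (1.73, adjusted p = 0.0933). *Crem*, a transcription factor of the cyclic AMP pathway, rose by 0.48 (SE 0.14, edgeR, adjusted p = 0.016), but did not pass with cells thinned to 2000 UMIs (edgeR, 0.54, adjusted p = 0.0976) or by limma's test over embryos (0.48, adjusted p = 0.116). *Rgs10*, *Thop1* and *Ece1* were the others that rose.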

How the data were processed

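Hypothalami of single embryos were cut into pieces, dissociated with papain and captured on the Bio-Rad ddSEQ system with the Illumina SureCell 3′ kit. The authors deposited 1 table of unnormalised UMI counts per gene and cell, from which low-quality cells had been removed before deposit (the lowest cell held 601 UMIs and 318 genes). The submitters' processing notes name STAR 2.5.2b, SAMtools 1.3 and build mm10. The 8 genes, gene lists and tests were chosen with earlier results of these data known.

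Leiden clusters were made in scanpy 1.11.5 with leidenalg 0.10.2 (2000 variable genes without the 8 genes, 30 components, 15 neighbours, resolution 1), and clusters were called X-like from at least 3 listed markers raised at least 2-fold over other cells in at least 10% of their cells. Neuron markers are spread over most cells, so neuron-like asked for at least 3 of them in at least 50% of cells and at or above the mean of all cells. Of 27 clusters, 3 (1630 cells) stayed unnamed: clusters 4 and 8, whose depth was 0.295 and 0.217 of the library median with no own marker among the leading genes, and cluster 25, led by markers of other lists. No doublets were removed in the main results. Removal of the highest 6% of doublet scores was an alternative.

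Counts were summed per embryo, so that the embryo was the replicate, and tested with edgeR 4.0.16 (quasi-likelihood, TMM scaling, Benjamini-Hochberg adjusted p under 0.05) over genes with at least 15 UMIs and a log-CPM whose median reached 1.5. All-Hypo sums held 627508 to 7328566 UMIs per embryo. All comparisons of genotypes, and that of classes, share the same Control embryos. Each embryo was left out in turn, and total UMIs in place of TMM, no median filter, sex as a covariate, libraries as samples, DESeq2 1.42.0, limma 3.58.1 with a least log2 change of 0.18, and thinned cells were tried. Removal of clusters 0 and 21, of cluster 21 or 19 alone, of the largest library (1207 cells) and of embryos under 500 cells, and GABA cells of only the embryos left at 2 *Slc32a1* UMIs, were chosen after seeing the data. Shares were compared by two-sided exact permutation over embryos, and pairs by two-sided exact sign flips within embryos with at least 10 positive cells.

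On simulated counts for 12477 genes of the All-Hypo comparison, 98% of 2-fold and 100% of 4-fold changes were recovered, with 2.96% false calls. For GABA cells (12453 genes) these shares were 82%, 95% and 4.32%, and for GABA against Glut cells (11841 genes) 91%, 100% and 4.98%. Changes were planted only in genes above a least mean level, and in All-Hypo cells *Npbwr1*, *Oprm1* and *Oprd1* lay below it. The simulated spread followed the trend over all genes, and for the classes no difference between embryos was simulated.

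All 8 genes were described whatever their values. The other rules named the 3 largest called rises and falls of the pathway list, the 3 genes most alike by Pearson correlation of log2(CPM + 10), and the 4 partner genes of 43 with the largest difference in share. Not every gene among the most alike is reported here. Other called pathway genes were named after their values were seen. Gene coordinates and coding sequences came from the GRCm38 annotation.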

Additional observations from a re-analysis of the deposited data

Results flagged for a closer look

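In 63 groups of 4 to 10 embryos, 6 had 1 embryo far from the others by Dixon's criterion, where chance gives about 1 in 20. In Control All-Hypo cells the highest *Pnoc* embryo stood at 88.2 CPM against a median of 62.3 CPM. In Eed-cKO All-Hypo cells the highest *Oprd1* embryo stood at 1.89 CPM against a median of 0.474 CPM, which rests on few UMIs. In Control GABA cells the highest *Oprk1* embryo stood at 53.8 CPM against a median of 21.4 CPM. In Glut cells the lowest Eed-cKO embryo for *Oprk1* had 0 CPM, the highest Control embryo for *Oprl1* had 134.5 CPM and the highest Eed-cKO embryo for *Oprl1* had 156.5 CPM.

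The genotype difference differed between GABA and Glut cells by an interaction test for *Pdyn* (1.01 on the log2 scale, edgeR, adjusted p = 0.00217) and *Pnoc* (-1.17, edgeR, adjusted p = 2.95e-06). The part of the transporter classes, which hold different clusters in the genotypes, in these differences was not tested.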

How the results depend on the processing

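The calls of *Oprk1* and *Npbwr1* in All-Hypo and neuron-like cells and of *Pnoc* in Glut cells held under every alternative that gave them a value. With 1 embryo left out, *Npbwr1* had a value in All-Hypo cells in 8 of 15 fits, since it lay near the filter on low genes. Counts of calls stayed within 1.5 times the main count in 186 alternatives and moved further in 15. The All-Hypo count of 4 genes was 2 without embryos under 500 cells and 2 to 4 with 1 embryo left out (2 without Control embryo 1, 2, 3 or 6 or Eed-cKO embryo 9, where *Pdyn* lost its call and *Npbwr1* fell under the filter). The GABA count of 4 was 2 with 2 *Slc32a1* UMIs required. The non-neural count was 0 to 1 (0 without Eed-cKO embryo 6). The pathway count of 19 was 8 with limma's least change over embryos, 11 over libraries and 31 with libraries as samples in edgeR. These alternative pathway counts have no share of all genes beside them. The count of 1 pair was 4 without thinning, 0 at 4000 UMIs, 0 in Control alone and 1 to 4 with 1 embryo left out (4 without Eed-cKO embryo 1).

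Directions that turned had not passed the test in the main results, apart from the share of *Oprm1* in *Pdyn* cells. Without clusters 0 and 21, *Pdyn* in neuron-like cells was 0.013, *Pnoc* in GABA cells -0.088 and the *Oprl1* interaction -0.012. The *Penk* share difference was -0.36 points at 1000 UMIs, -0.40 at 2 UMIs and -1.86 without the 2 clusters (exact permutation p = 0.013), and that of *Oprd1* -0.021 at 2000 UMIs and -0.0017 at 2 UMIs. Among pairs, *Oprm1* in *Pdyn* cells was 0.00055 points without thinning, *Oprl1* in *Penk* cells 8.71 without thinning, 3.37 at 4000 UMIs and 2.00 in Control alone, *Penk* in *Pdyn* cells -0.061 at 4000 UMIs, *Pnoc* in *Pdyn* cells 2.01 without thinning and *Pnoc* in *Penk* cells -2.90 in Control alone. With 1 embryo left out, *Penk* ran from -0.11 to 0.033 (neuron-like) and -0.29 to 0.044 (Glut), *Oprl1* from -0.0027 to 0.063 (neuron-like), -0.054 to 0.071 (Glut), -0.034 to 0.088 (GABA against Glut) and -0.030 to 0.11 (interaction), *Pdyn* from -1.003 to 0.073 (non-neural), the *Penk* share from -0.108 to 0.536, and the pairs *Oprl1* in *Pdyn* from -0.151 to 2.23, *Oprl1* in *Penk* from -1.999 to 0.188 and *Penk* in *Pdyn* from -0.694 to 0.470. The causes were not tested. No paired analysis was possible because embryo numbers are only names in the order of the embryo labels, tie no Control embryo to an Eed-cKO embryo, and 0 litters held both genotypes.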
